A study of Rattus norvegicus with 12 samples.

Results

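Livers of newborn rats whose dams ate a low protein diet with added folic acid during pregnancy were compared with livers of newborn rats whose dams ate the control diet. The members of the comparison were chosen by the sample labels alone, and are 8 of the 12 livers in the series, 4 of group MLP-F (maternal low protein with folate) and 4 of group C (control). The other 4, of group MLP (low protein without the added folate), entered the same model and are used only where the position of MLP-F needs them. All pups were male Wistar rats of 1 day, and the dams of MLP-F and of MLP received the same lowered casein content. The diets ended at birth. According to the study's methods each diet group was a single litter. The livers of a group are therefore from littermates, and diet and litter cannot be told apart. All p-values here measure the spread among pups. The study had no group with added folate on a control diet, so an effect of folate alone was not measured. The comparison addresses how far a liver exposed to low protein with folate differs from that of a control pup. Total RNA of each liver was hybridised to an Illumina RatRef-12 BeadChip, a 1-colour array on which each bead carries a probe for a transcript.

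Protein restriction of pregnant rats is a widely used model of fetal programming, the lasting effect of the conditions before birth on the physiology of the offspring. Folate carries the 1-carbon units that cells need to make nucleotides and to turn homocysteine into methionine, and methionine feeds S-adenosylmethionine, the methyl donor for DNA, histones and RNA. The liver holds most of the enzymes of this cycle, and around birth it changes from an organ that also forms blood to one that makes glucose, burns fatty acids and clears foreign compounds.

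Levels are given on a log2 scale re-expanded from the deposited values, on which probes ran from 0.047 to 8.82. A difference is the mean of MLP-F minus the mean of C on that scale, with its standard error (SE), and differences of dim probes are understated. After probes with a mean at or under the 30th percentile had been left out, 15753 of 22505 were tested, and a probe was called where limma's p, adjusted over all 15753 by the Benjamini-Hochberg method, was under 0.05. The 8 livers had near equal distributions, with medians from 0.226 to 0.228. The labelled tissue was borne out by its markers: the hepatocyte list (11 of 16 genes measured) had medians from 7.60 to 7.80 in MLP-F and from 7.29 to 7.74 in C. A pair of C livers also carried transcripts of other tissues. C replicate 4 had a median of 4.35 over 12 skeletal muscle markers and of 1.71 over 9 lung epithelium markers, while MLP-F livers had 0.22 to 0.32 and 0.15 to 0.20 and the other C livers 0.23 to 0.33 and 0.16 to 0.21. C replicate 1 had 3.50 over 15 stellate cell and fibroblast markers, 2.60 over 7 smooth muscle markers and 1.71 over 7 skin markers, while MLP-F livers had 1.18 to 1.81, 0.46 to 0.83 and 0.21 to 0.29. The part of these transcripts in the results was not tested. Calls without both of these C livers are given beside most of the main results, for pathway lists with MLP-F replicate 2 left out as well. In whole tissue, fewer cells of a type and less RNA per cell cannot be told apart.

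With all livers 76 probes were called between MLP-F and C, which is 0.482% of those tested. Of these 30 (0.19%) were higher in MLP-F and 46 (0.292%) lower, 1 was called at an adjusted p under 0.01, and 2353 had an unadjusted p under 0.05. The called probes included 59 named genes, and their median difference in size was 0.53. A model of these 8 livers alone, without the MLP group in the estimate of the spread, called 6, of which 4 were among the 76. In that model 24 of the genes and probes singled out below lost their call, so most calls with all livers depend on the MLP livers being in the estimate. All 76 had MLP-F and C values that did not overlap, as did 6.27% of all probes tested. With MLP-F replicate 2 left out the same model called 940 probes (5.97%), 418 higher (2.65%) and 522 lower (3.31%), with 159 at 0.01, and all 76 were among them. In that fit 3184 of the 15753 probes had an unadjusted p under 0.05. These 940 covered 732 named genes with a median difference of 0.49 in size, and 37 exceeded 1. That liver was set aside because of where its values lie, and its absence narrows the spread of MLP-F, so the adjusted p-values without it are too small by an unknown amount and describe the 3 other livers. When C replicates 1 and 4 were left out as well, 227 probes (1.44%) were called, of which 202 were among the 940 and 45 among the 76, and all 940 kept their sign. When these C livers alone were left out 14 probes were called, 10 of the 76 among them, 1 higher and 9 lower. Called probes were bright. Of the 3939 probes with the highest mean level (at least 1.501), called the bright probes from here on, 15.5% were called without MLP-F replicate 2, against 7.85% of the next 3938 and 0.533% of the 3938 after those, so the share of bright members called without MLP-F replicate 2 is given beside the count of a pathway list, to be read against 15.5%.

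**Figure D1:**
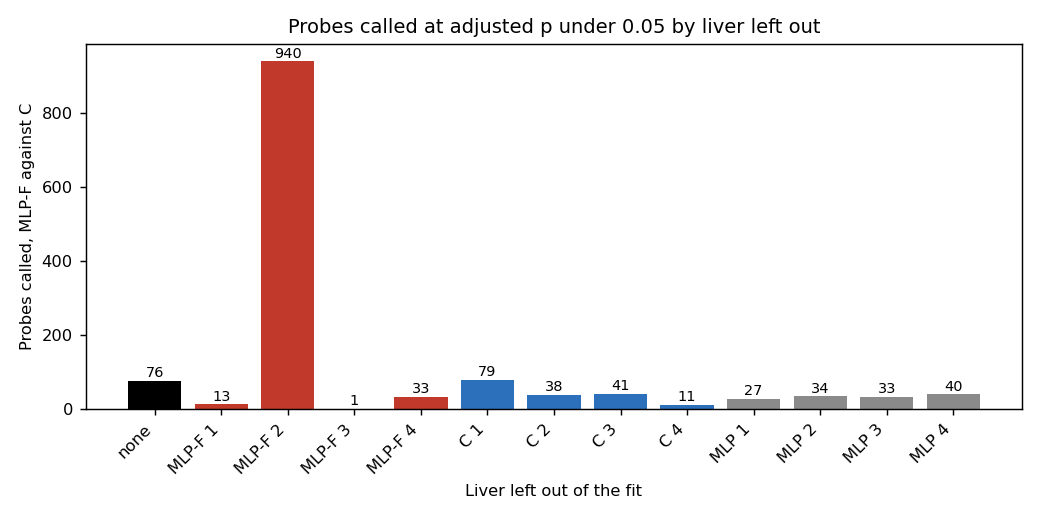
Number of probes called between MLP-F and C (y axis, adjusted p under 0.05) when no liver or the liver named on the x axis was left out of the model; red bars are MLP-F livers, blue bars C livers and grey bars MLP livers, which share in the estimate of the spread. The count was 940 without MLP-F replicate 2 and at most 79 without any other liver.

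The count of called probes turned on this 1 liver. Each other liver left out gave between 1 probe (without MLP-F replicate 3) and 79 (without C replicate 1). Across all tested probes the liver most like MLP-F replicate 2 was C replicate 2 (r = 0.993), while r with its own littermates was 0.980 to 0.988. On the second principal component, which held 24% of the variance, MLP-F replicates 1, 3 and 4 had scores of -21.8, -16.1 and -10.6, and MLP-F replicate 2 had 4.59. C replicates 2 and 3 had 4.19 and -0.0812. C replicates 1 and 4, which carried transcripts of other tissues, had 21.3 and 15.5. Each liver was then placed on the 500 probes with the smallest p in a fit that left it out, on a scale where 0% is the mean of C and 100% the mean of MLP-F. MLP-F replicates 1, 3 and 4 lay at medians of 105%, 102% and 75.4%, and MLP-F replicate 2 at 19.1%. The C livers lay at 26.3%, 32.0%, 38.5% and 5.80%, so that MLP-F replicate 2 fell within the span of the controls. Each liver has its own probes and end points here, and for C livers the 100% end includes MLP-F replicate 2. The percentages are therefore not strictly on one scale. Over the 940 probes called without MLP-F replicate 2, its median was 19.7% of the way, with quartiles at -1.98% and 46.1%. It lay inside the range of C on 502 of them (53.4%) and inside the range of its 3 littermates on 100 (10.6%). It still lay on the MLP-F side of the C mean on 697 (74.1%). Its label was kept, as no label goes against it, and a mixed-up sample was not tested.

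**Figure D2:**
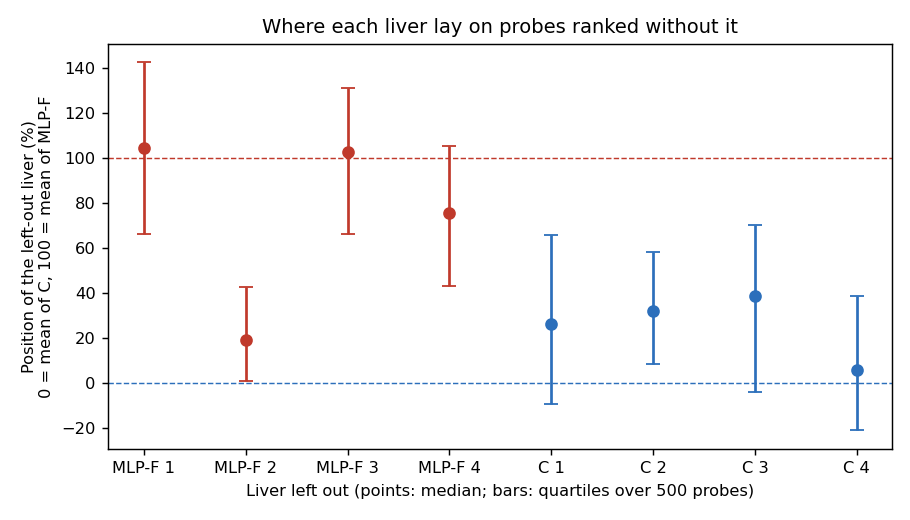
Position of each liver (x axis) on 500 probes ranked in a fit without that liver, in percent of the way from the mean of C (0) to the mean of MLP-F (100), with points for medians and bars for quartiles over probes. MLP-F replicate 2 sits at 19.1%, among the 4 C livers at 5.80% to 38.5%, while its littermates sit at 75.4% to 105%. Probes and end points differ between livers.

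Among the named genes called with all 4 livers a side, the largest falls included genes of vesicle traffic. Rab5b, a small GTPase of early endosomes, had levels of 0.37, 0.89, 0.48 and 0.53 in MLP-F and 1.33, 1.88, 1.52 and 1.79 in C, a difference of -1.06 ± 0.15 (SE, adjusted p = 0.0177 by limma), and of -1.17 ± 0.14 without MLP-F replicate 2. Nsf, the ATPase that takes SNARE complexes apart after membranes have fused, had 0.51, 0.95, 0.52 and 0.76 in MLP-F and 1.56, 1.54, 1.55 and 1.63 in C (difference -0.88 ± 0.11, limma adjusted p = 0.0152). No MLP-F liver came near the lowest C liver for either gene, and MLP-F replicate 2 was the highest of its group in both. Tmem30a, a subunit of the flippases that move phospholipids across membranes, fell by 0.62 (limma adjusted p = 0.0493), and by 0.72 without MLP-F replicate 2. Rnasek, a small protein tied to the vacuolar proton pump, had the smallest p among named genes, with 4.40, 4.63, 4.37 and 4.40 in MLP-F and 4.89, 5.04, 5.01 and 5.004 in C. Its difference was -0.54 ± 0.06 (limma adjusted p = 0.0137) and -0.60 ± 0.04 without MLP-F replicate 2 (adjusted p = 0.00104). Wdr45b, which binds phosphoinositides during autophagy, fell by 0.67 (limma adjusted p = 0.0242) and by 0.78 without that liver.

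Other falls covered growth control, interferon response, retinoid metabolism and detoxification. Btg1, which holds back cell proliferation, had 5.22, 5.07, 5.16 and 4.88 in MLP-F and 5.94, 5.89, 5.86 and 5.59 in C (difference -0.74 ± 0.10, limma adjusted p = 0.0187). Aldh1a1, which oxidises retinaldehyde to retinoic acid, had 3.46, 3.36, 3.56 and 3.28 in MLP-F and 4.13, 4.23, 4.21 and 3.89 in C (difference -0.70 ± 0.09, limma adjusted p = 0.0158). For Btg1, Aldh1a1 and Pla2g12a, a secreted phospholipase, MLP-F replicate 2 lay at 103%, 112% and 145% of the way from C to its littermates, so these genes did not rest on leaving it out. Ifitm1, an interferon-induced membrane protein, fell by 0.73 (limma adjusted p = 0.0469), Pla2g12a by 0.66 (adjusted p = 0.0464), Klhl14, a Kelch protein, by 0.65 (adjusted p = 0.0242) and the cytochrome P450 Cyp2c24 by 0.61 (adjusted p = 0.0451). With all MLP-F livers but without C replicates 1 and 4, Aldh1a1 and Rnasek alone of these falls were called (limma adjusted p = 0.0308 for each). Rab5b, Btg1, Klhl14 and Cyp2c24 then missed the threshold narrowly (limma adjusted p = 0.0523 for each), as did Nsf (0.0687), while Tmem30a, Wdr45b, Pla2g12a and Ifitm1 had an adjusted p of 0.154, 0.156, 0.158 and 0.213. The differences in that fit ran from -1.13 for Rab5b to -0.58 for Wdr45b. Without C replicates 1 and 4 and MLP-F replicate 2, Rab5b, Nsf, Btg1, Aldh1a1, Wdr45b, Klhl14, Tmem30a, Cyp2c24 and Rnasek were still called, while Ifitm1 (limma adjusted p = 0.116) and Pla2g12a (adjusted p = 0.0898) were not.

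The largest rise was in Hnrnpl, a regulator of alternative splicing that binds CA-rich RNA. It had 3.67, 3.53, 3.80 and 4.02 in MLP-F and 2.56, 3.27, 2.68 and 2.54 in C, a difference of 0.995 ± 0.15 (limma adjusted p = 0.0242) and of 1.07 ± 0.16 without MLP-F replicate 2. Its closest pair of livers across the groups was MLP-F replicate 2 and C replicate 2. Aox1, an aldehyde oxidase of drug and retinoid metabolism, had 2.63, 2.20, 2.88 and 2.48 in MLP-F and 1.66, 1.96, 1.25 and 1.58 in C (difference 0.94 ± 0.17, limma adjusted p = 0.0451). Pfkfb1, the liver form of the enzyme that makes and breaks down fructose 2,6-bisphosphate and so steers glycolysis against glucose output, had 3.81, 3.39, 4.10 and 3.71 in MLP-F and 3.09, 2.86, 2.92 and 2.77 in C (difference 0.84 ± 0.13, limma adjusted p = 0.0242). Acad10, of the acyl-CoA dehydrogenase family, had 2.23, 2.45, 2.63 and 2.81 in MLP-F and 1.49, 1.93, 1.67 and 1.45 in C (difference 0.89 ± 0.13, limma adjusted p = 0.0216). All 4 genes were above every C liver in every MLP-F liver. Tm7sf3, a membrane protein, rose by 0.84 (limma adjusted p = 0.0158), Spns1, a lysosomal lipid transporter, by 0.81 (adjusted p = 0.0267), Zpbp2, known from sperm, by 0.61 (adjusted p = 0.0224), Clk4, a kinase of splicing factors, by 0.58 (adjusted p = 0.0493), Pex19, which inserts peroxisomal membrane proteins, by 0.58 (adjusted p = 0.0464) and Abcc5, an export pump, by 0.58 (adjusted p = 0.0471). Dtx2, a ubiquitin ligase of the Deltex family, rose by 0.49 (limma adjusted p = 0.0376) and by 0.58 without MLP-F replicate 2 (adjusted p = 0.00268). With all MLP-F livers but without C replicates 1 and 4, 0 of these 11 rises were called by limma, though all 11 had an unadjusted p under 0.05, the adjusted p running from 0.0523 for Tm7sf3 to 0.253 for Abcc5 and the differences from 0.46 for Dtx2 to 0.95 for Aox1. Without MLP-F replicate 2 as well, Hnrnpl, Pfkfb1, Tm7sf3, Spns1, Zpbp2 and Dtx2 were called, and Aox1 (limma adjusted p = 0.0532), Acad10 (0.0599), Clk4 (0.0974), Pex19 (0.115) and Abcc5 (0.0835) were not.

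The smallest p with all livers belonged to a probe without a gene name here, ILMN_1374013, at 1.91, 1.84, 1.77 and 1.93 in MLP-F and 2.31, 2.29, 2.34 and 2.41 in C. Its difference was -0.47 ± 0.04 (limma adjusted p = 0.0048), and it was called in each of the 12 fits that left out a single liver. ILMN_1368116 fell by 0.62 (limma adjusted p = 0.0152) and ILMN_1650062 rose by 0.63 (adjusted p = 0.0152). Both were called in 11 of the 12 fits, and MLP-F replicate 2 lay with its littermates on all 3 probes. Named genes called with all livers varied widely in these 12 fits. Nsf, Btg1, Aldh1a1 and Rnasek were called in 11, Acad10 and Tm7sf3 in 10, Rab5b in 9 and Wdr45b and Zpbp2 in 8. Klhl14 and Hnrnpl were called in 7, Pfkfb1 and Spns1 in 6 and Pla2g12a, Cyp2c24 and Clk4 in 3. Aox1, Pex19 and Abcc5 were called in only 2, and Tmem30a and Ifitm1 in only 1. Without C replicates 1 and 4 ILMN_1374013 was still called (limma adjusted p = 0.0308), and ILMN_1368116 (0.0687) and ILMN_1650062 (0.0523) were not.

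**Figure D3:**
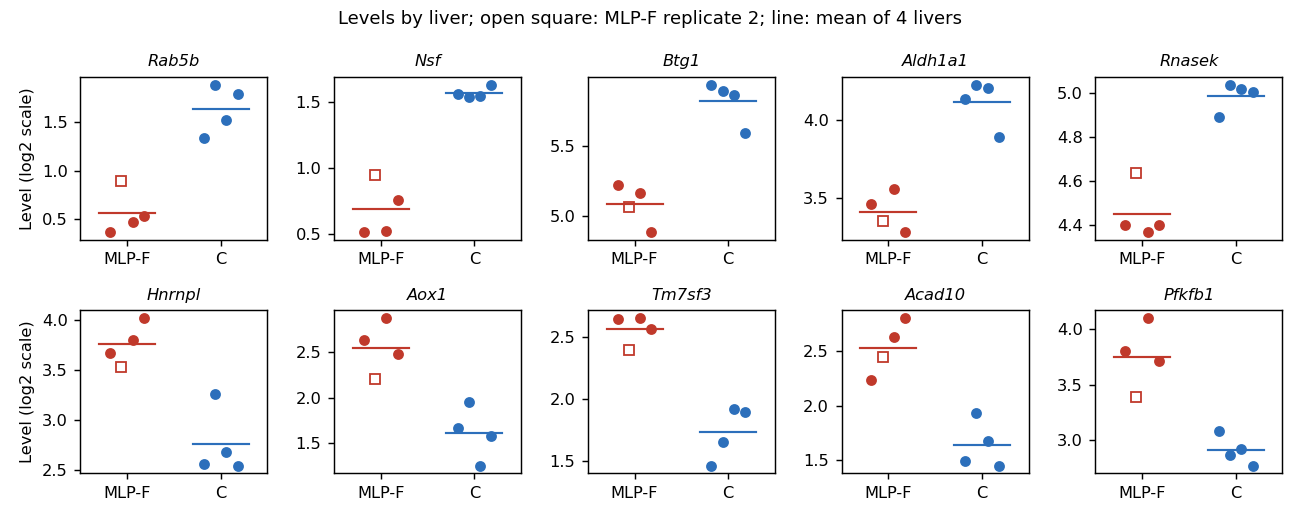
Levels (y axis, re-expanded log2 scale, a separate range for each gene) of 10 genes called with all livers, in MLP-F (left, red) and C (right, blue); each point is 1 liver, the open square is MLP-F replicate 2 and lines are means of 4 livers. The groups do not overlap for any of these genes, and for Rab5b, Nsf, Rnasek, Hnrnpl, Aox1, Tm7sf3 and Pfkfb1 the open square is the MLP-F liver nearest to C.

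A second set of named genes was called without MLP-F replicate 2 and not with all livers. This choice favours genes in which MLP-F replicate 2 departs from its littermates. That it lay with C in most of them is therefore a description and no separate finding. Ldha, the lactate dehydrogenase subunit that dominates in muscle and fetal tissue, had 5.25, 6.40, 5.01 and 5.24 in MLP-F replicates 1 to 4 and 6.30, 6.29, 6.19 and 6.05 in C. The difference was -0.73 ± 0.24 with all livers (limma adjusted p = 0.185) and -1.04 ± 0.10 without MLP-F replicate 2 (adjusted p = 0.00268). MLP-F replicate 2 thus exceeded every C liver while its littermates were below every one. Ugt1a1, the transferase that conjugates bilirubin, had the largest called difference of that fit, with 0.73, 2.01, 0.998 and 0.44 in MLP-F and 2.98, 2.21, 1.55 and 2.83 in C (difference -1.35 ± 0.35, limma adjusted p = 0.105, with all livers, and -1.67 ± 0.29, adjusted p = 0.0116, without MLP-F replicate 2). Genes of its family share exons, so their probes may not be told apart. Mat1a, which makes S-adenosylmethionine in the adult liver, had 2.35, 3.27, 2.71 and 2.14 in MLP-F and 3.94, 3.18, 3.31 and 3.75 in C (difference -0.93 ± 0.24, limma adjusted p = 0.107, and -1.14 ± 0.20, adjusted p = 0.0124, without MLP-F replicate 2). With C replicates 1 and 4 left out as well Ldha and Ugt1a1 were still called, and Mat1a was not (limma adjusted p = 0.0636).

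Further large falls of the fit without MLP-F replicate 2 were also not called with all livers. In these MLP-F replicate 2 did not always lie with C. For Crp, Aass and Cyp3a23-3a1 it was at 51.6%, 51.7% and 59.8% of the way from C to its littermates. Gulo, the last enzyme of vitamin C synthesis in rats, differed by -0.92 ± 0.24 with all livers (limma adjusted p = 0.111) and by -1.20 ± 0.14 without MLP-F replicate 2 (adjusted p = 0.0037), and MLP-F replicate 2 had 2.61 against 1.22 to 1.69 in its littermates and 2.36 to 2.92 in C. Crp, an acute phase protein, missed the threshold narrowly with all livers (difference -1.10 ± 0.21, limma adjusted p = 0.0503), and its MLP-F values, 1.25 to 2.11, were all below its C values, 2.53 to 3.15. Npm1, a nucleolar chaperone of ribosome assembly, differed by -0.91 ± 0.28 (limma adjusted p = 0.162) and -1.21 ± 0.21 (adjusted p = 0.0112). Actb, cytoplasmic actin and a common reference gene, has 3 tested probes that did not go one way. ILMN_2038798 differed by -0.86 ± 0.20 (limma adjusted p = 0.085) and -1.06 ± 0.16 (adjusted p = 0.00682), with 3.85, 4.85, 4.05 and 4.26 in MLP-F and 5.57, 4.86, 4.93 and 5.10 in C. ILMN_1355039 for Actb was also lower, by 0.81 without MLP-F replicate 2 (limma adjusted p = 0.0243), while ILMN_2038799, the brightest of these Actb probes, averaged 7.46 in MLP-F and 7.41 in C and differed by 0.11 in that fit (adjusted p = 0.551). Npm1 and Actb have many processed copies in the genome, and their probes may also read those. Aass, of lysine breakdown, differed by -1.24 ± 0.31, Slc34a2, a phosphate transporter, by -1.23 ± 0.24 and Cyp3a23-3a1, a P450 with close paralogs, by -1.25 ± 0.29 without MLP-F replicate 2, with limma adjusted p of 0.0425, 0.0174 and 0.0338. None of these 3 was called with all livers or with C replicates 1 and 4 left out as well, while Gulo, Crp, Npm1 and the Actb probe ILMN_2038798 were still called with those C livers left out, Npm1 narrowly (limma adjusted p = 0.0491).

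Genes with large rises of that fit that were not called with all livers had varied roles. Rasd1, a Ras-like GTPase induced by glucocorticoids, had 3.44, 2.59, 3.12 and 3.12 in MLP-F and 2.17, 2.41, 2.06 and 1.66 in C (difference 0.99 ± 0.20, limma adjusted p = 0.0632, and 1.15 ± 0.18, adjusted p = 0.00941, without MLP-F replicate 2). Thrb, the thyroid hormone receptor that prevails in liver, had 2.81, 1.66, 2.53 and 2.40 in MLP-F and 1.45, 1.97, 1.60 and 1.15 in C (difference 0.81 ± 0.22, limma adjusted p = 0.119, and 1.04 ± 0.17, adjusted p = 0.00941). In Rasd1 the groups did not overlap, and in Thrb MLP-F replicate 2 lay inside the range of C. Ces1e, a carboxylesterase, had 1.44, 0.76, 1.52 and 1.29 in MLP-F and 0.48, 0.76, 0.53 and 0.67 in C and a difference of 0.81 ± 0.08 without MLP-F replicate 2 (limma adjusted p = 0.00268). Trit1, which modifies tRNA, rose by 0.97 in that fit (limma adjusted p = 0.0108), Zc3h11a, of mRNA export, by 0.97 (adjusted p = 0.00941), Atoh8, a transcription factor, by 0.97 (adjusted p = 0.0423), Abcc6, an export pump, by 0.94 (adjusted p = 0.0218) and Tmem14a by 1.09 (adjusted p = 0.0242). With C replicates 1 and 4 left out as well Ces1e, Thrb and Rasd1 were still called (limma adjusted p = 0.0166, 0.0438 and 0.0487), and Trit1, Zc3h11a, Atoh8, Abcc6 and Tmem14a were not (adjusted p = 0.0576 to 0.223).

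**Figure D4:**
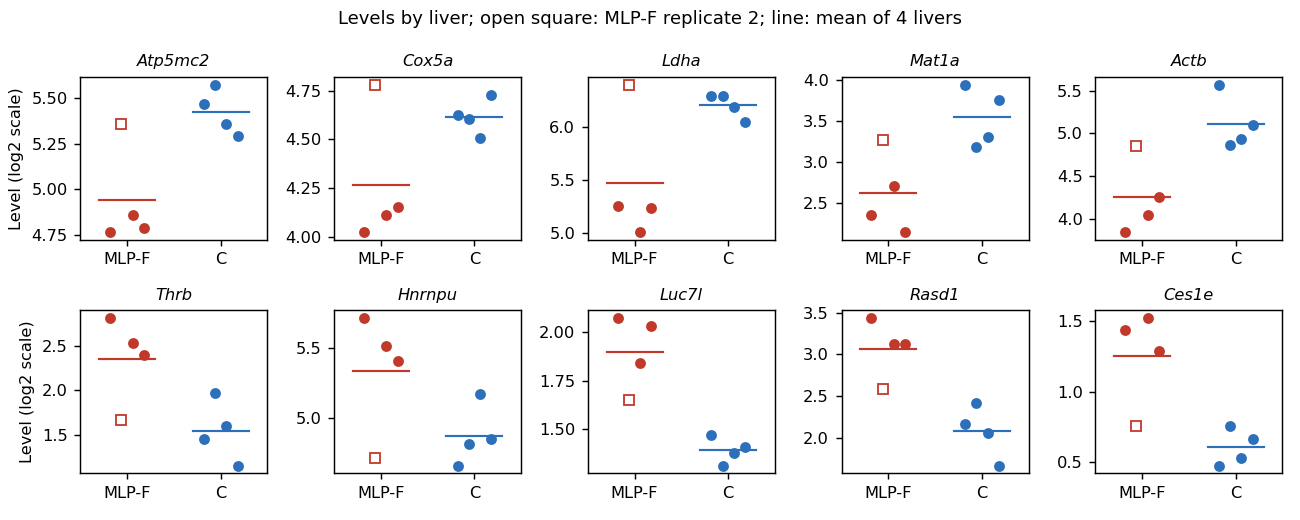
Levels (y axis, re-expanded log2 scale, a separate range for each gene) of 10 genes called without MLP-F replicate 2 and not with all livers, in MLP-F (left, red) and C (right, blue); each point is 1 liver, the open square is MLP-F replicate 2 and lines are means of 4 livers. For Atp5mc2, Cox5a, Ldha, Mat1a, Thrb and Hnrnpu the open square lies within or beyond the range of C, away from the 3 filled MLP-F points. The choice of these genes favours such a position.

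Gene lists written from textbook knowledge were then counted. As they were chosen with earlier results of these livers known, their counts describe the members and are no independent evidence of a direction. Splicing regulators, proteins that choose which exons a transcript keeps, were called mainly in the higher direction. With all livers 2 of 52 probes were called, Hnrnpl and Clk4, both higher (3.85%), and the median difference of the list was 0.04, beside 0.00 over all probes. Leaving out MLP-F replicate 2 gave 8 higher and 3 lower (21.2%, and 38.5% of the 26 that were bright), with a median of 0.06. The higher ones were Hnrnpl, Hnrnpu, Clk1, Clk4, Luc7l, Luc7l3, Srsf6 and Srsf2. Hnrnpu, a nuclear matrix protein that also acts in splicing, had 5.72, 4.71, 5.52 and 5.41 in MLP-F and 4.66, 4.81, 5.17 and 4.85 in C, and differed by 0.47 ± 0.18 with all livers (limma adjusted p = 0.244) and by 0.68 ± 0.11 without MLP-F replicate 2 (adjusted p = 0.00941). Luc7l, of the U1 particle, had 2.07, 1.65, 1.84 and 2.03 in MLP-F and 1.47, 1.31, 1.38 and 1.41 in C and differed by 0.51 ± 0.10 (limma adjusted p = 0.0503) and 0.59 ± 0.08 (adjusted p = 0.00612). The kinase Clk1 rose by 0.67 (limma adjusted p = 0.0207) and the SR protein Srsf6 by 0.48 (adjusted p = 0.0297) in that fit. The lower ones were Hnrnpa2b1, which fell by 0.51 (limma adjusted p = 0.0181), Ptbp1, a repressor of exons, which fell by 0.34 (adjusted p = 0.0431), and Sf3b2. With C replicates 1 and 4 also left out 4 were called, Hnrnpl, Luc7l, Clk1 and Srsf6, all of them higher.

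Genes of endosomes, membrane fusion and Rab traffic were called mainly in the lower direction. With all livers 3 of 80 probes were called (3.75%), Rab5b, Nsf and Tmem30a, each lower, and 19 had an unadjusted p under 0.05. Leaving out MLP-F replicate 2 gave 12 lower and 1 higher (16.2%, and 25% of the 40 that were bright), with a list median of -0.06 and 55 of 80 differences below 0. The added falls were Cltb and Clta, the clathrin light chains, the Rab proteins Rab8a, Rab9a and Rab21, the retromer subunit Vps35, the tether subunit Vps41, the SNARE Vamp8 and the GTPase Arf4, and the rise was Sar1a, which starts coats at the endoplasmic reticulum. Cltb had 2.11, 2.62, 2.15 and 2.03 in MLP-F and 2.81, 2.63, 2.78 and 2.67 in C and differed by -0.49 ± 0.12 with all livers (limma adjusted p = 0.0881) and by -0.63 ± 0.08 without MLP-F replicate 2 (adjusted p = 0.00405). Arf4 differed by -0.66 ± 0.31 (limma adjusted p = 0.35) and -1.02 ± 0.18 (adjusted p = 0.0122), with MLP-F replicate 2 at 5.23 beside a C mean of 4.80. Leaving out C replicates 1 and 4 too left 4 called, Rab5b, Nsf, Tmem30a and Cltb, all of them lower. In the list of lysosome, proton pump and autophagy, 1 of 57 was higher (Spns1) and 3 were lower (Wdr45b, Rnasek and the lysosomal protease cathepsin B, Ctsb, by 0.54 with limma adjusted p = 0.0401) with all livers (7.02%). In the fit without MLP-F replicate 2 they were joined by Hexa and Atg9a, higher, and Gabarapl2, lower (12.3%, and 17.6% of the 34 that were bright), and the list median was 0.03, so this list did not lean to either side. With C replicates 1 and 4 also left out Rnasek, Wdr45b and Spns1 were called, and Ctsb was not (limma adjusted p = 0.0937).

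Genes of oxidative phosphorylation, which encode the respiratory chain and ATP synthase of mitochondria, were called only in the lower direction, and only without MLP-F replicate 2. With all livers 0 of 55 probes were called by limma at the adjusted threshold, 17 had an unadjusted p under 0.05, and the list median was -0.08. Without MLP-F replicate 2 there were 13 lower and 0 higher (23.6%, and 26.0% of the 50 that were bright), and the median was -0.13, with 40 of 55 differences below 0. In that fit 27 of the 55 had an unadjusted p under 0.05, beside 3184 of all 15753 probes. The 13 called covered complex I (Ndufb8, Ndufb6, Ndufa5, Ndufs1, Ndufb11, Ndufc2 and Ndufab1), the flavoprotein subunit of complex II (Sdha), cytochrome c (Cycs), complex IV (Cox5a) and ATP synthase (Atp5pf, Atp5mc2 and Atp5f1a). Their differences ran from -0.86 ± 0.14 in Ndufb8 (limma adjusted p = 0.0106) to -0.21 ± 0.05 in Ndufab1 (adjusted p = 0.0333). Atp5mc2, the ring subunit of ATP synthase, had 4.76, 5.36, 4.86 and 4.79 in MLP-F and 5.47, 5.58, 5.36 and 5.29 in C and differed by -0.48 ± 0.12 with all livers (limma adjusted p = 0.0955) and by -0.62 ± 0.07 without MLP-F replicate 2 (adjusted p = 0.00358). Cox5a had 4.02, 4.78, 4.11 and 4.15 in MLP-F and 4.62, 4.61, 4.51 and 4.73 in C and differed by -0.35 ± 0.13 (limma adjusted p = 0.243) and -0.52 ± 0.06 (adjusted p = 0.00314). Ndufs1 had 3.47, 4.08, 3.54 and 3.40 in MLP-F and 4.07, 3.78, 4.01 and 4.03 in C. In all 3 genes MLP-F replicates 1, 3 and 4 were below every C liver, and MLP-F replicate 2 was within the range of C or above it. With C replicates 1 and 4 also left out 4 were called, Ndufb6, Atp5mc2, Cox5a and Ndufs1, and the median stayed at -0.13.

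As these 13 genes were all lower, their promoter windows in RefSeq (rat assembly GRCr8, 250 bases before to 50 after each start) were searched on both strands for the motifs of 3 factors known to act on respiratory chain genes: AANATGGC for YY1, GCGCNTGCG for NRF1 and CCGGAAG for ETS factors such as GABP. Matches to different motifs, such as ETS and YY1, can overlap, and each was counted for its own motif. Windows were found for all 13 genes and for 36 of the other 42 tested. The YY1 motif was in 5 of the 13 (38.5%), in 13 of the other 36 (36.1%) and in 7.36% of all 27457 windows. The NRF1 motif was in 4 of the 13 (30.8%), in 13 of the other 36 (36.1%) and in 6.34% of all windows. The ETS motif was in 3 of the 13 (23.1%), in 12 of the other 36 (33.3%) and in 9.22% of all windows. The letters were thus about as frequent in genes of the list that were not called as in those that were. As examples, the windows of Atp5mc2 (chr7:135678169-135678468, minus strand), of Ndufb8 (chr1:253362887-253363186, minus strand) and of Sdha (chr1:30764303-30764602, plus strand) are given 5′ to 3′, with motif letters in capitals. The capitals are NRF1 motifs on both strands that overlap in Atp5mc2, a YY1 motif in Ndufb8, and NRF1 motifs at 3 positions and a YY1 motif near the end in Sdha.
Atp5mc2: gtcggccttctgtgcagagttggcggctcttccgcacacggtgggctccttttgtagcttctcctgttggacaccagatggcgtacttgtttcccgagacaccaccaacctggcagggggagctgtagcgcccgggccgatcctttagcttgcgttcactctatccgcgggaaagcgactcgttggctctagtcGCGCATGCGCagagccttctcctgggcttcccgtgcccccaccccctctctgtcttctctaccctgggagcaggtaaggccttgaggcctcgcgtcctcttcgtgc
Ndufb8: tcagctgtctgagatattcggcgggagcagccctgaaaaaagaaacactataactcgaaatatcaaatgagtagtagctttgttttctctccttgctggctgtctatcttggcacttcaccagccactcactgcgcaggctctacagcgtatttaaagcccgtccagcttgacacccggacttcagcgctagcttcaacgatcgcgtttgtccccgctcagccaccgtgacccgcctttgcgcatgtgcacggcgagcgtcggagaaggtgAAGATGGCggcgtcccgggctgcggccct
Sdha: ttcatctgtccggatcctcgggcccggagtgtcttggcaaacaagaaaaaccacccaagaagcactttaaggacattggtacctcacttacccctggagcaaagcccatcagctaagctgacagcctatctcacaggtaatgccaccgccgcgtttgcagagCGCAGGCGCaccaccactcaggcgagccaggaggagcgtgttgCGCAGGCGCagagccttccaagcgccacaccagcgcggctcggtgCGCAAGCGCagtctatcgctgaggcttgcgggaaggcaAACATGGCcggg

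Transcripts of cytosolic ribosomal proteins moved both ways. With all livers 1 of 57 probes was called (1.75%), Rpl17, which fell by 0.57 (limma adjusted p = 0.0451). Without MLP-F replicate 2 there were 15 lower and 6 higher (36.8%, and 38.5% of the 52 that were bright), and the list median was -0.11. The lower ones included Rpl10 (-0.90 ± 0.15), Rps26 (-0.79 ± 0.13) and Rpl13a (-0.61 ± 0.08), with adjusted p of 0.00955, 0.00941 and 0.00414, and the higher ones Rpl8 (0.61 ± 0.13), Rpsa (0.49 ± 0.10) and Rpl14 (0.48 ± 0.08), with adjusted p of 0.0238, 0.0201 and 0.0124. Rpl10 had 5.68, 6.95, 5.91 and 6.32 in MLP-F and 6.97, 6.71, 6.73 and 7.07 in C, so that MLP-F replicate 2 again lay within C. The fit without MLP-F replicate 2 and C replicates 1 and 4 called 3, Rpl13a and Rps24, lower, and Rps3a, higher. Ribosomal protein genes have many processed copies, and which copy a probe reads is uncertain. Of 36 proteasome probes 3 were lower without MLP-F replicate 2 (Psma2, Psmb2 and Psmd6) and 0 were higher (8.33%, and 9.38% of the 32 that were bright, below the 15.5% of all bright probes), and with all livers 0 were called, 8 of them having an unadjusted p under 0.05. With MLP-F replicate 2 and C replicates 1 and 4 left out Psmb2 alone was called.

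**Figure D5:**
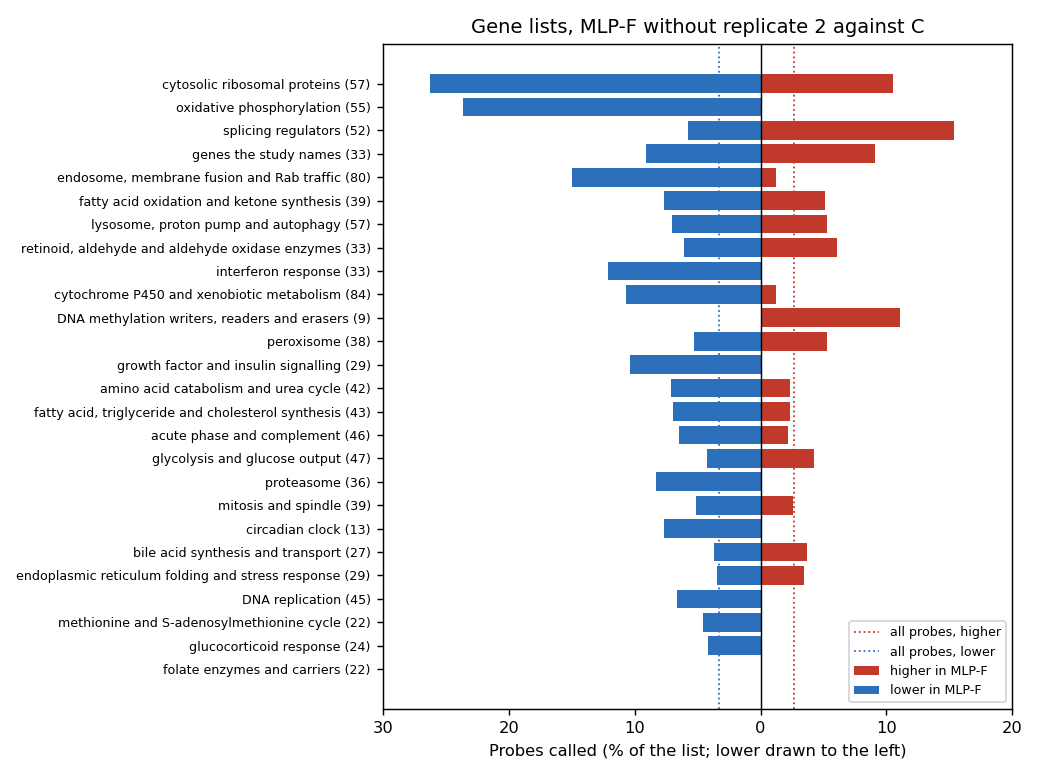
Percent of the probes of each list called higher (red, to the right) or lower (blue, to the left) in MLP-F without replicate 2 against C, with the number of probes of a list in brackets and dotted lines for all 15753 probes (2.65% higher, 3.31% lower). The lines do not allow for brightness. Of bright probes 15.5% were called, so a list rich in bright probes can pass the lines without being called more often than bright probes in general. Ribosomal proteins have 36.8% called, oxidative phosphorylation 23.6% and splicing regulators 21.2%, and folate enzymes and carriers, with 6 of 22 probes bright, have 0.

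Enzymes that handle foreign compounds were called no more often than bright probes in general without MLP-F replicate 2, and all but 1 of those called were lower. With all livers 3 of 84 probes were called, each lower (3.57%): Cyp2c24, named above, Gstm2, a glutathione transferase at 0.34, 0.48, 0.38 and 0.30 in MLP-F and 0.98, 0.87, 0.73 and 0.99 in C (difference -0.52 ± 0.07, limma adjusted p = 0.0158), and Cyp4a1, a fatty acid hydroxylase, which fell by 0.58 (adjusted p = 0.0469). Without MLP-F replicate 2 there were 9 lower and 1 higher (11.9%, and 10.9% of the 46 that were bright, against 15.5% of all bright probes), the others being Ugt1a1, Ugt1a6, Cyp3a23-3a1, Gsta2, Mgst2 and Gstm4, lower, and Gsta3, higher. The list median was -0.02 in both fits. Gstm, Gsta, Cyp3a and Ugt1a genes have near copies that a probe may also read. With C replicates 1 and 4 left out as well 0 were higher and 5 lower. Cyp4a1 and Cyp3a23-3a1 each have 2 tested probes, both lower without MLP-F replicate 2, of which 1 was called. Of 33 retinoid and aldehyde probes 3 were called with all livers (9.09%), Aldh1a1 and Rbp4, the plasma carrier of retinol, lower and Aox1 higher. Rbp4 had 2.02, 2.35, 2.24 and 2.28 in MLP-F and 2.74, 2.96, 2.53 and 2.89 in C (difference -0.56 ± 0.10, limma adjusted p = 0.0451). It was called in 2 of the 12 fits that left out a single liver. Rxrb, a retinoid X receptor, joined the higher ones without MLP-F replicate 2, by 0.51 (limma adjusted p = 0.0157), on 1 of its 2 tested probes. The other, dim probe for Rxrb averaged 0.31 in both MLP-F and C (adjusted p = 0.977 in that fit). With Rxrb the list had 12.1% called, and 30.8% of its 13 bright probes, and with C replicates 1 and 4 also left out Aldh1a1 alone was called.

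Genes of energy and lipid metabolism showed single changes in both directions. In each of their lists the share of bright members called without MLP-F replicate 2 was below the 15.5% of all bright probes. For glycolysis and glucose output, Pfkfb1 was the only called probe of 47 with all livers (2.13%), and without MLP-F replicate 2 Slc37a4, the glucose 6-phosphate transporter, was also higher, by 0.72 (limma adjusted p = 0.0477), while Ldha and Aldoa were lower (8.51%, and 12.1% of 33 bright). Aldoa has 2 tested probes, both lower in that fit, of which 1 was called. For fatty acid oxidation Acad10 was the only one of 39 with all livers (2.56%), and without MLP-F replicate 2 Slc25a20, the carnitine carrier, was higher and Crot, Acsl3 and Hadhb were lower (12.8%, and 14.3% of 28 bright). Crot, which handles peroxisomal acyl groups, had 3.68, 4.44, 3.90 and 3.90 in MLP-F and 4.63, 4.38, 4.40 and 4.39 in C and differed by -0.63 ± 0.09 in that fit (limma adjusted p = 0.00558). For peroxisomes Pex19 was the only one of 38 with all livers (2.63%), and without MLP-F replicate 2 Pex6 was higher by 0.67 (limma adjusted p = 0.00584) and Pecr and catalase, Cat, were lower (10.5%, and 15% of 20 bright). Mttp, which loads lipid onto apolipoprotein B, had 4.87, 5.37, 4.84 and 4.94 in MLP-F and 5.49, 5.71, 5.53 and 5.55 in C and differed by -0.57 ± 0.11 with all livers (limma adjusted p = 0.0628) and by -0.69 ± 0.08 without MLP-F replicate 2 (adjusted p = 0.00358). In the list of lipid synthesis and transport, which holds Mttp, 1 of 43 was higher (the desaturase Fads2) and 3 were lower (Mttp, Elovl5 and Abca1) in that fit (9.30%, and 12.5% of 24 bright). The 27 probes of bile acid synthesis and transport had a median difference of 0.17 with all livers, 0.18 without MLP-F replicate 2 and 0.13 without C replicates 1 and 4 as well. Of these Cyp27a1, a sterol hydroxylase, was higher by 0.53 and Scp2, a sterol carrier, lower by 0.43 without MLP-F replicate 2 (limma adjusted p = 0.0229 and 0.0161), 7.41% of the list and 10.5% of its 19 bright probes, and 0 were called with all livers, 8 having an unadjusted p under 0.05. Among amino acid enzymes 1 of 42 was higher (Prodh2, of hydroxyproline breakdown) and 3 were lower (Aass, Cps1 and Bckdhb) without MLP-F replicate 2 (9.52%, and 12.5% of 32 bright), and 0 were called with all livers, 9 having an unadjusted p under 0.05. Cps1, the first enzyme of the urea cycle, had 3.09, 4.10, 3.95 and 2.90 in MLP-F and 4.72, 4.30, 3.89 and 5.14 in C, values that overlapped even without MLP-F replicate 2. With C replicates 1 and 4 left out as well, Ldha, Pfkfb1, Aldoa, Crot, Acsl3, Pex6, Mttp, Scp2 and Bckdhb were called. The other genes named in this paragraph were not, with a limma adjusted p of 0.212 for Cat, 0.233 for Hadhb and 0.235 for Cps1.

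The enzymes of folate itself showed no called probe. Of 22 probes for folate enzymes and carriers 0 were called by limma with all livers or without MLP-F replicate 2, 6 and 9 had an unadjusted p under 0.05, and the list median was 0.05 and 0.04. Over all 15753 probes 2353 and 3184 had an unadjusted p under 0.05 in these fits. Only 6 of the 22 folate probes were bright, so the absence of calls does not show that the list was unchanged. Of 22 probes of the methionine cycle Mat1a alone was called, without MLP-F replicate 2 (4.55%, and 7.14% of 14 bright). Gnmt, the glycine methyltransferase that consumes spare S-adenosylmethionine, had 4.36, 4.13, 5.02 and 3.87 in MLP-F and 3.68, 4.32, 4.39 and 4.94 in C (difference 0.01 ± 0.26, limma adjusted p = 0.99). Its groups overlapped, and it averaged 5.64 in MLP, from which MLP-F differed by -1.30 ± 0.26 (limma adjusted p = 0.015). Of 9 probes for writers, readers and erasers of DNA methylation, Uhrf2, a reader of modified DNA, was called without MLP-F replicate 2 (11.1%, and 16.7% of 6 bright), with 3.75, 3.51, 3.54 and 3.52 in MLP-F and 3.32, 3.34, 3.18 and 3.04 in C (difference 0.38 ± 0.09, limma adjusted p = 0.0302). Dnmt1, the maintenance methyltransferase, had 3.34, 3.08, 2.94 and 3.45 in MLP-F and 3.14, 3.09, 3.53 and 3.27 in C (difference -0.06 ± 0.12, limma adjusted p = 0.882), and Dnmt3a, which methylates DNA anew, had 3.56, 3.41, 3.34 and 3.04 and 2.34, 2.86, 3.04 and 2.62 (difference 0.62 ± 0.14, adjusted p = 0.085). The adjusted p of Dnmt3a without MLP-F replicate 2 was 0.0574. With C replicates 1 and 4 also left out the difference of Dnmt3a was 0.36 (limma adjusted p = 0.271), and Uhrf2 was not called (adjusted p = 0.118). Dnmt3b differed by 0.14 ± 0.16 (limma adjusted p = 0.753).

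Genes of cell division and chromatin that the study discusses gave few calls. These genes were picked by the study from the same livers and are no independent evidence. Mcm6, of the replicative helicase, differed by -0.12 ± 0.16 (limma adjusted p = 0.779), Gmnn, which blocks origin licensing, by -0.29 ± 0.17 (adjusted p = 0.462), Aurkb, a mitotic kinase, by 0.01 ± 0.16 (adjusted p = 0.985) and H2az1, a histone variant, by -0.17 ± 0.12 (adjusted p = 0.536). MLP-F livers lay on both sides of the C livers in several of these genes. H2az1 had 6.49, 6.60, 6.12 and 6.84 in MLP-F and 6.67, 6.72, 6.71 and 6.65 in C, so that every MLP-F liver was outside the narrow range of C, MLP-F replicate 4 above it and the others below. Mmadhc, of vitamin B12 handling, had 3.59, 4.48, 4.13 and 4.67 in MLP-F and 4.56, 4.45, 4.43 and 4.43 in C (difference -0.25 ± 0.19, limma adjusted p = 0.587) and averaged 1.65 in MLP. Ezh2, the methyltransferase for lysine on histone H3 in Polycomb complexes, had 0.50, 1.06, 0.49 and 0.67 in MLP-F and 1.05, 0.96, 1.04 and 0.96 in C. It differed by -0.32 ± 0.10 with all livers (limma adjusted p = 0.175) and by -0.45 ± 0.06 without MLP-F replicate 2 (adjusted p = 0.00405), and MLP-F replicate 2 was above every C liver. Hat1, a histone acetyltransferase, had 2.78, 3.26, 2.44 and 3.24 in MLP-F and 3.49, 3.32, 3.29 and 3.52 in C (difference -0.47 ± 0.16, limma adjusted p = 0.178, and -0.58 ± 0.15, adjusted p = 0.0477), every MLP-F liver being below every C liver. With C replicates 1 and 4 also left out Ezh2 was called (limma adjusted p = 0.0336) and Hat1 was not (0.266). Over the 33 probes of study genes 0 were called with all livers, 10 having an unadjusted p under 0.05, and 3 higher (Glrx2, Agtrap and Abhd6) and 3 lower (Ezh2, Hat1 and Prep) were called without MLP-F replicate 2 (18.2%, and 22.7% of 22 bright). Ezh2 alone of the 33 was called with C replicates 1 and 4 also left out. Of 45 replication probes 3 were lower without MLP-F replicate 2 (6.67%, near the 5.97% of all probes, and 12% of 25 bright, below the 15.5% of all bright probes), Rfc5, Rrm2 and Rpa3, and 0 were called with all livers, 10 having an unadjusted p under 0.05. Without MLP-F replicate 2 and C replicates 1 and 4, 0 of the 45 were called. Of 39 mitosis probes Ska1, a kinetochore protein at 0.42, 0.35, 0.42 and 0.47 in MLP-F and 0.25, 0.17, 0.17 and 0.13 in C, was called with all livers (2.56%, difference 0.24 ± 0.04, limma adjusted p = 0.039), and Ube2c and Ect2, lower, joined it without MLP-F replicate 2 (7.69%, and 6.25% of 16 bright). Ska1 was dim, with C values near the filter level of 0.158, and was called in 3 of the 12 fits that left out a single liver. Without C replicates 1 and 4 Ska1 was not called (limma adjusted p = 0.133), and without MLP-F replicate 2 as well it was the only called probe of the list (adjusted p = 0.0474).

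Defence and hormone genes gave a few calls. Of 33 interferon response probes Ifitm1 was called with all livers (3.03%), and without MLP-F replicate 2 Ifitm3, Ifi47 and Igtp were lower as well (12.1%, and 27.3% of 11 bright), by 0.99, 0.83 and 0.83 (limma adjusted p = 0.0342, 0.0341 and 0.029). None of the 4 was called with C replicates 1 and 4 also left out, and the list median was 0.03. Of 46 acute phase and complement probes Crp, Kng1 and Kng2 were lower and Cfb, complement factor B, higher without MLP-F replicate 2 (8.70%, and 9.52% of 42 bright, below the 15.5% of all bright probes), and 0 were called with all livers, 7 having an unadjusted p under 0.05. For Kng2 this is 1 of 2 tested probes, and the other, brighter one differed by 0.19 (limma adjusted p = 0.307) in that fit. Cfb had 7.003, 6.73, 7.02 and 6.99 in MLP-F and 6.41, 6.64, 6.65 and 6.38 in C (difference 0.42 ± 0.09, limma adjusted p = 0.0763, with all livers). Without MLP-F replicate 2 and C replicates 1 and 4, Crp and Kng1 were called, and Cfb (limma adjusted p = 0.0695) and Kng2 (0.255) were not. Among 29 growth factor and insulin signalling probes Btg1 was called with all livers (3.45%), and Igf2r, the receptor that clears IGF2, and Socs2, a brake on growth hormone signalling, joined it, lower, without MLP-F replicate 2 (10.3%, and 23.1% of 13 bright). Btg1 and Socs2 were still called with C replicates 1 and 4 also left out, and Igf2r was not (limma adjusted p = 0.144). Hsd11b1, which regenerates active glucocorticoid, was the only called one of 24 glucocorticoid response probes without MLP-F replicate 2 (4.17%, and 5.88% of 17 bright), with 5.10, 5.57, 5.46 and 5.07 in MLP-F and 5.75, 5.996, 6.11 and 5.82 in C (difference -0.62 ± 0.12, limma adjusted p = 0.056, and -0.71 ± 0.11, adjusted p = 0.00941). Bhlhe40, a circadian repressor, was lower by 0.77 in that fit (limma adjusted p = 0.029), as the only called one of 13 clock probes (7.69%, and 14.3% of 7 bright). In the endoplasmic reticulum list of 29, Ddit3, a stress transcription factor, was higher by 0.59 (limma adjusted p = 0.0161) and the chaperone Dnajb9 lower by 0.75 (adjusted p = 0.0225), 6.90% in all and 10.5% of 19 bright. With C replicates 1 and 4 also left out Hsd11b1 was called, and Bhlhe40, Ddit3 and Dnajb9 were not.

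Among markers of cell types few probes were called, and the lists are short. Of 11 hepatocyte probes Cps1 alone was called without MLP-F replicate 2, lower (9.09%, and 10% of 10 bright). Slc4a1, the red cell anion exchanger, and Tfrc, the transferrin receptor, were lower without MLP-F replicate 2 by 0.66 and 0.42 (limma adjusted p = 0.0272 and 0.0348), while the 21 erythroid probes had medians of 1.76 to 2.20 in MLP-F and 1.77 to 2.37 in C. In that fit the share called was 9.52%, and 7.69% of the 13 that were bright, and 10 of the 21 differences were below 0. Lyve1, of liver sinusoids, was lower by 0.45 and Vwf, of larger vessels, higher by 0.38 (limma adjusted p = 0.0256 and 0.0337), with endothelial medians of 1.47 to 1.80 in MLP-F and 1.39 to 1.61 in C. The share called was 28.6% of 7 endothelial probes, and 50% of the 4 that were bright, against 15.5% of all bright probes. With C replicates 1 and 4 also left out 0 of these markers were called. Macrophage markers had medians of 1.74 to 1.95 in MLP-F and 1.46 to 1.79 in C, with 0 called in either fit and 4 of 10 at an unadjusted p under 0.05 without MLP-F replicate 2. The medians of difference of the stellate cell and skeletal muscle lists were -0.48 and -1.10 with all livers, and 0.00 and 0.01 without MLP-F replicate 2 and C replicates 1 and 4.

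Set against MLP livers, which shared the low protein diet, MLP-F livers differed at 1037 probes (6.58%), and at 1355 (8.60%) without MLP-F replicate 2. The same MLP-F livers stand on one side of both comparisons, so they are given side by side only. For a group of genes that differed from C, MLP was close to MLP-F. Acad10 averaged 2.53 in MLP-F, 2.61 in MLP and 1.64 in C, and MLP-F minus MLP was -0.08 ± 0.13 (limma adjusted p = 0.832). Pex19 averaged 1.53 in MLP-F, 1.57 in MLP and 0.95 in C (MLP-F minus MLP -0.04 ± 0.11, limma adjusted p = 0.912). Spns1 averaged 3.90 in MLP-F, 3.79 in MLP and 3.09 in C (MLP-F minus MLP 0.11 ± 0.13, limma adjusted p = 0.754). Such a p does not show that the 2 low protein groups were alike. For other genes MLP was near C, and MLP-F differed from it too. Rab5b averaged 0.57 in MLP-F, 1.57 in MLP and 1.63 in C (MLP-F minus MLP -0.998 ± 0.15, limma adjusted p = 0.00325), and Aox1 2.55, 1.55 and 1.61 (0.995 ± 0.17, adjusted p = 0.00671). Rbp4 and Ifitm1 were lower in MLP-F than in both other groups, by 1.23 and 1.45 against MLP (limma adjusted p = 0.000165 and 0.000333). Pfkfb1 lay between the groups, at 3.75 in MLP-F, 4.20 in MLP and 2.91 in C.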

How the data were processed

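Livers of 12 male pups, 4 in each of the groups MLP-F, MLP and C as the labels give them, were hybridised singly. The authors' methods name beadarray, limma and quantile normalization. The deposited log2 values of 22505 probes ran from 4.00 to 4.63 and were read as log2 of 16 plus a value already on a log2 scale. They were re-expanded by raising 2 to each value and subtracting 16. No source states this reading, which sets the size of every difference. Background correction and the authors' filter on probes are not given in the sources used here. A table of bead intensities with 12 columns named by array position was not matched to samples and was not used. Precision is limited by the number of arrays.

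Probes above the 30th percentile of mean level (15753) entered a single limma model of 12 samples (lmFit and eBayes, limma 3.58.1, R 4.3.3), two-sided, with 9 residual degrees of freedom, and again without MLP-F replicate 2. Adjusted p-values are limma's, after Benjamini and Hochberg. On simulated data over 15753 probes, with all livers, 74.6% of changes of 0.5 and 95.5% of changes of 1 were recovered, and 5.79% of calls were wrong. The simulated noise was independent between livers, with 1 spread per probe and no outlying liver. Leaving out MLP-F replicate 2 changed the simulated calls from 190 to 179, and the real ones from 76 to 940. These rates thus check the code and are not error rates of this comparison. Symbols came from the platform annotation, updated through a RefSeq table of GRCr8 (10552 tested probes, 10321 genes). Of 218 genes with several tested probes, 25 had a called probe without MLP-F replicate 2. More than 1 probe was called in only 2 of these genes, Actb and Zyx, and in neither did all probes go in one direction. All probes went in one direction in 12 of the 25, so a call for such a gene mostly rests on 1 probe. Named genes were the 10 largest rises and 10 largest falls without overlap in each fit, the 5 smallest p in each fit, up to 3 called probes per list, and genes the study discusses. Other list members are named where counts of calls are given. Members, lists and the exclusion of MLP-F replicate 2 were chosen with earlier results of these data known. Replicate numbers gave no pairing: deviations of same-numbered MLP-F and C livers correlated at -0.217, -0.02, 0.092 and 0.034. Alternatives covered left-out livers, sample sets, filters, scale, normalization, variance model and weights.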

Additional observations from a re-analysis of the deposited data

Results flagged for a closer look

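In groups of 4 livers, a single liver stood far from the other 3 for 10 of 210 group values of named genes (4.76%), and chance alone marks about 1 group in 20. MLP-F replicate 2 was that liver in 6 of the 10. It had 4.63 for Rnasek, 5.36 for Atp5mc2, 4.22 for Mgst2, 0.98 for Elovl5 and 1.80 for Socs2, all above its littermates, and 6.73 for Cfb, below them. In each of these 6 genes it lay toward the mean of C or past it. These genes were named partly for differing once that liver was left out, so the count is a description. MLP-F replicate 1 stood high for Uhrf2, at 3.75. Among C livers, replicate 2 stood high for Abcc6 at 2.88, replicate 1 for Crot at 4.63 and replicate 4 for Aldoa at 3.53. C replicate 4 is also the liver with high skeletal muscle markers (list median 4.35), and the part of muscle RNA in its Aldoa level was not tested.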

How the results depend on the processing

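The count of 76 called probes between MLP-F and C ranged from 1 to 940 over the 12 fits that left out 1 liver, and was 14 without C replicates 1 and 4, 227 without these and MLP-F replicate 2, 6 with the 8 livers alone and 37 with no filter on dim probes. The replicate block gave 29, and as same-numbered livers come from different litters and did not deviate together, it is no paired test. Other filters, scales, normalizations, variance models and weights gave 73 to 113, though not always the same probes. The other variance model called 113, of which 55 were among the 76, and array weights called 73, of which 64 were. The fit without C replicate 1 called 79, of which 49 were among the 76. The 940 without MLP-F replicate 2 became 408 with the remaining 7 livers alone and 227 without C replicates 1 and 4 as well, and was 645 to 1108 under the rest, 672 with the replicate block. Of the 408, 378 were among the 940, and 34 of the named genes and probes lost their call in that fit. The 1037 between MLP-F and MLP ranged from 619 to 1355 over single livers left out. The causes were not tested. Sign changes occurred only in 4 named genes, none of them called in any fit: Dnmt1 (-0.140 to 0.034 over single livers left out), Gnmt (-0.21 to 0.21, -0.011 without C replicates 1 and 4, and -0.036 with array weights), Aurkb (-0.11 to 0.18, -0.057 without C replicates 1 and 4, and -0.13 without MLP-F replicate 2 as well) and Dnmt3b (-0.052 without C replicates 1 and 4). Counted over pairs of a named gene and a setting, 242 lost their call, 126 gained one and 1928 kept their side of the threshold. Low signal limits what could be called: 1 of the 3938 dimmest probes passed without MLP-F replicate 2.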
